A study of Mus musculus with 8 samples.

Results

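The genes described here encode the folding machinery of the endoplasmic reticulum (ER), the sensors of the unfolded protein response (UPR) and the machinery of ER-associated degradation (ERAD). They were taken as a list of 37 named genes, all 37 of which were found among the 55359 gene identifiers of the deposited count table, and the rule that names them uses no measured value. The cells were MLO-Y4, a wild type mouse cell line with osteocyte features, and both groups were of this 1 line. Non-irradiated controls (4 libraries) were set against cells treated with a pulsed Er:YAG laser (4 libraries), an infrared dental laser whose light is absorbed by water. The laser emitted at 2940 nm and gave 6 J/cm2 over 1 min to 35-mm dishes from which the medium had been removed, 25 cm below the emitter and 72 h after seeding, and RNA was taken 6 h later. Dish, seeding time and time of RNA are given for the irradiated group only. Whether the controls were handled alike apart from the laser is therefore not known here. The labels do not say whether the libraries of a group came from separate cultures, so p-values measure the spread between these libraries, which may be technical.

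Secreted and membrane proteins enter the ER unfolded. There the Hsp70 chaperone BiP (Hspa5) and its J-protein partners, the lectin chaperones and the disulfide isomerases fold them. When unfolded protein builds up, the membrane sensors Atf6, IRE1 (Ern1) and PERK (Eif2ak3) start the UPR, in which cleaved ATF6 and spliced XBP1 raise transcription of chaperone and ERAD genes. ERAD moves misfolded proteins back to the cytosol for the proteasome. Osteoblast-lineage cells secrete much collagen and rely on this machinery.

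Library totals ran from 43786209 to 51734166 counts. Levels are given as CPM, counts over the library total (scaled by TMM factors and multiplied by 1e+06), with mean ± SD and n = 4 per group. The column numbers of the count table name the libraries here, C5 to C8 for controls without laser and L5 to L8 for exposed cells, and a log2 fold change above 0 means a higher level after irradiation. Of 7 osteocyte markers, Pdpn, Gja1 and Phex were expressed, Dmp1 had 82 counts over all libraries, and Sost, Mepe and Fgf23 were at 0. Their summed level was 738.6 to 764.9 CPM in controls and 927.2 to 960.7 CPM after irradiation, with Pdpn (means 486.8 and 608.4 CPM) and Gja1 (250.1 and 318.4 CPM) called higher. The summed level of 5 macrophage and osteoclast markers was 17.3 to 20.9 CPM in controls against 28.1 to 31.3 CPM after irradiation. Of these Csf1r was higher (means 14.2 and 26.2 CPM), Cd68 had 4.07 to 5.07 against 2.96 to 3.81 CPM and did not pass the test, and Ptprc, Adgre1 and Acp5 were at 0. The part of either shift in the results below was not tested. The 3 epithelial markers were at 0, and the endothelial and adipocyte lists summed to below 1 CPM in every library. In bulk RNA a lower level in every cell cannot be told apart from fewer cells expressing a gene.

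Of the 37 genes 36 passed the filter on low counts, the exception being Derl3. Irradiated cells had higher levels of 7 of the 36 and lower levels of 0, and 29 did not pass the test (quasi-likelihood test in edgeR, p adjusted by Benjamini-Hochberg over all 15164 tested genes, threshold 0.05). Over all tested genes 15.0% were called, 8.22% higher and 6.75% lower. The tested ER genes are well expressed, with the lowest mean at 25.5 CPM, and among the 8010 genes that averaged 20 CPM or more 13.6% were called higher and 9.8% lower. The 7 of 36 (19.4%) stood not far above the 13.6% of that set, which has a floor of 20 CPM and was not matched to the members in level. Its libraries also scattered more. Among controls the median SD, as a share of the mean, was 4.85% for the set and 2.94% for the members. For laser-treated libraries these values were 4.35% and 2.81%. The shares are therefore no like-for-like comparison. At an unadjusted p under 0.05 there were 11, all of them higher, where 20.9% of the genes averaging 20 CPM or more were higher and 17.7% lower (13.9% and 13.5% of all tested genes). By DESeq2 0 were lower and 9 higher, where 11.2% of the 13394 genes given an adjusted p were higher and 8.97% lower.

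The members that rose were Herpud1, Hspa5, Hyou1, Creld2, Manf, Hsp90b1 and Txndc5, and the fitted rises ran from 6.26% for Txndc5 to 24.6% for Herpud1. In the other direction the largest fitted difference was that of Sil1, 9.9% lower and not past the test. The median log2 fold change of the 36 genes was 0.03, against -0.01 for all tested genes. Their median absolute log2 fold change was 0.05, against 0.13 for all tested genes and 0.08 for those averaging 20 CPM or more. For 17 of the 29 genes that did not pass, the 95% interval of the change lay within 10% on either side of 0. Together the 37 genes took 1.19% of all counts in each non-irradiated library and 1.22% or 1.23% in the irradiated ones.

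**Figure D1:**
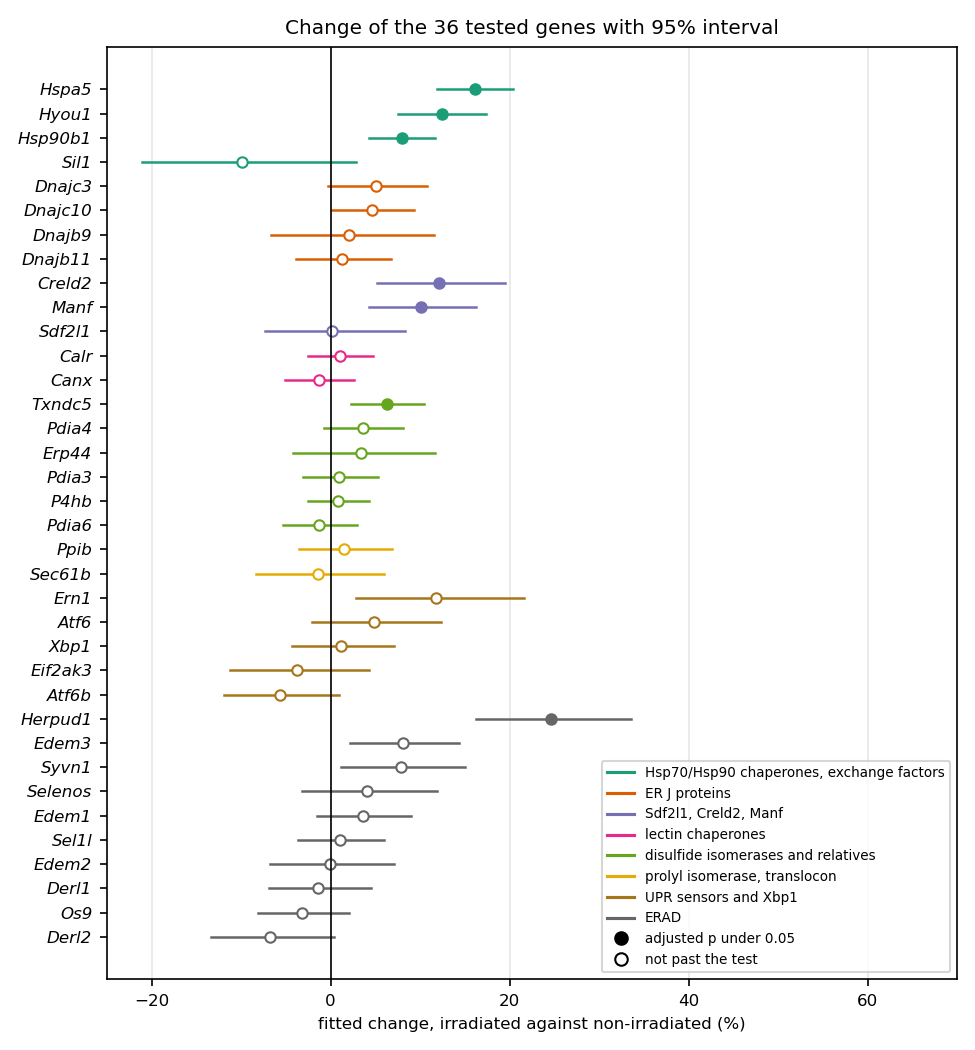
Fitted change of the 36 tested genes in irradiated against non-irradiated cells (x axis, percent) with its 95% interval (lines), grouped by role (colour), with filled points for an adjusted p under 0.05. The 7 filled points lie to the right of 0, between 6.26% and 24.6%, and every open point lies between -9.9% and 11.8%.

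Sequence upstream of the start site is shown for 5 genes, picked after their calls were known. Promoters came from a sequence table and were searched for short elements that UPR factors are known to bind. The ER stress element ERSE, bound by ATF6 together with NF-Y, was searched as CCAAT and CCACG with 9 bases between them, its relative ERSE-II as ATTGG and CCACG with 1 base between them, and the core of the UPR element as TGACGTGG. All were searched on both strands of the windows from 250 bases before to 50 bases after each annotated start (RefSeq, GRCm38.p6, a build other than the GRCm39 of the count table). The letters CCACG are part of all 3 motifs on one strand or the other. The 250 bases before the start are printed for 3 genes that rose with an ERSE, for Herpud1, which rose with an ERSE-II, and for Calr, which holds an ERSE and did not pass the test. They read from 5′ to 3′ on the gene's strand, and capitals mark the fixed letters of a match to one of the 3 motifs.
Hspa5, chr2:34771840-34772089, plus strand: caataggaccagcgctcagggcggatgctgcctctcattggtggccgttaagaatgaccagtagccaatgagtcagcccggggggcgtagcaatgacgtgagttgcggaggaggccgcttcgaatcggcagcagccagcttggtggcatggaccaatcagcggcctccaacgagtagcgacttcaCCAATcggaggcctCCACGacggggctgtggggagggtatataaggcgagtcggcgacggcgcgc
Hsp90b1, chr10:86705445-86705694, minus strand: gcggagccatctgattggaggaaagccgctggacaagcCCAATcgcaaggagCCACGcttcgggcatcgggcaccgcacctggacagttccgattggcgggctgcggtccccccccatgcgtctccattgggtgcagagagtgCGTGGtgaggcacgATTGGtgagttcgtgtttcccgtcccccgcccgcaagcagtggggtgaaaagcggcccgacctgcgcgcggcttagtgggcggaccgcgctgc
Creld2, chr15:88819396-88819645, plus strand: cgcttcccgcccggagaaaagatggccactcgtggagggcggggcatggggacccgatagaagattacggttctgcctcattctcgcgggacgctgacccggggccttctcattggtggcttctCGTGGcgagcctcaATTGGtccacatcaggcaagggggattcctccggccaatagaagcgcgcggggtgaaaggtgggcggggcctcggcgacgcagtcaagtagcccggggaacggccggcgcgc
Herpud1, chr8:94386179-94386428, plus strand: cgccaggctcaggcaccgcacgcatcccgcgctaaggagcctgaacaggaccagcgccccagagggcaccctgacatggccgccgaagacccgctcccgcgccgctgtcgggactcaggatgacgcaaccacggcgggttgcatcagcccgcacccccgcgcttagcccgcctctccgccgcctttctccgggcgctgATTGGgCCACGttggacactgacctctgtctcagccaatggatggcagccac
Calr, chr8:84846932-84847181, minus strand: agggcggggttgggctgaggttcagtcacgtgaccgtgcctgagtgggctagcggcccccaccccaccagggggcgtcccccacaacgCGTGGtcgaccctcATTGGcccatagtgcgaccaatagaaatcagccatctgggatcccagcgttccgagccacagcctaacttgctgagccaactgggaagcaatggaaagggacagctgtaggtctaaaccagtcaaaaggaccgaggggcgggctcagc

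An ERSE was found in 9 of the 32 members with a promoter in the table (28.1%), against 37 of 27025 genes with one (0.137%), so members made up 24.3% of all genes with an ERSE there. The list names genes of a kind that UPR factors are known to raise, so this share describes the list and is no result about irradiation. The holders were Hspa5, Hsp90b1, Creld2, Calr, Canx, Pdia6, Dnajc3, Syvn1 and Derl3. ERSE-II was found in Herpud1 and Dnajb11, against 0.0444% of all genes, and the UPRE core in Txndc5, in 1 of its start sites, against 0.714%. The 19-base ERSE of Hspa5, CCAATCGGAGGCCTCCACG, began 65 bases before the start. Hsp90b1 had a pair, at 212 bases on the gene's strand and at 107 bases on the other. Only exact matches to the fixed letters were counted, so near copies with a changed letter are missed, in Hspa5 as elsewhere. The ERSE-II of Herpud1, ATTGGGCCACG, began 52 bases before the start.

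All 5 of the risen members with a promoter in the table (Hspa5, Hsp90b1, Creld2, Herpud1 and Txndc5) held at least 1 of the 3 motifs, as did 6 of the 26 tested members with a promoter that did not pass the test. With the ERSE alone the counts were 3 of 5 and 5 of 26. Whether the motifs had a part in the rises was not tested. Hyou1, Manf, Sil1, Atf6 and Derl1 had no entry there. The loose parts of the element were common: CCAAT alone was in 41.1% and CCACG alone in 35.5% of all genes. Of the 28 other genes with an ERSE, 8 were tested, of which 1 was called higher. A match describes these letters and no binding, and no match says nothing of the factor.

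**Figure D2:**
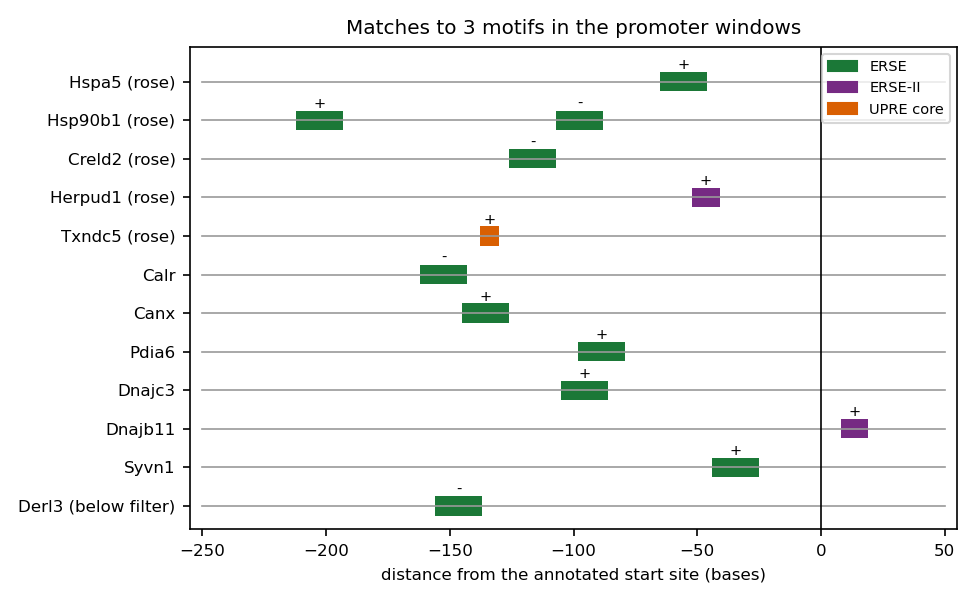
Positions of the motif matches (coloured bars) in the promoter windows of the 12 members that hold one, as distance in bases from the annotated start site (x axis), with the strand of the match above each bar. The 5 members that rose are at the top, and matches lie between 212 bases before the start and, in Dnajb11, 8 bases after it.

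In non-irradiated cells the genes spanned a wide range of levels. Per kb of exon length, P4hb, the abundant protein disulfide isomerase that is also a subunit of collagen prolyl 4-hydroxylase, had the highest level at 586.4 CPM per kb. It was followed by Calr (415.6), Hspa5 (373.2), Hsp90b1 (308.4) and Pdia3 (259.9 CPM per kb). Canx (172.6), Pdia6 (161), Pdia4 (133.3) and Txndc5 (109.2 CPM per kb) came next. The sensors were at the bottom, with Atf6 at 10.4, Eif2ak3 at 8.12 and Ern1 at 6.23 CPM per kb, while Xbp1 stood at 41.9. Sil1 (7.79) and Derl2 (7.15) lay among the sensors by this measure. The length is the union of all annotated exons, 8049 bases for Derl2 (57.5 CPM), so the order of genes depends on it. Derl3 had 9 counts over the non-irradiated and 25 over the irradiated libraries and was not tested. In irradiated cells the mean of Hspa5, 433.2 CPM per kb, was above that of Calr, 419.9. Their ranges over the irradiated libraries overlapped, though within each such library Hspa5 was above Calr. Within each non-irradiated library Calr was above Hspa5.

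**Figure D3:**
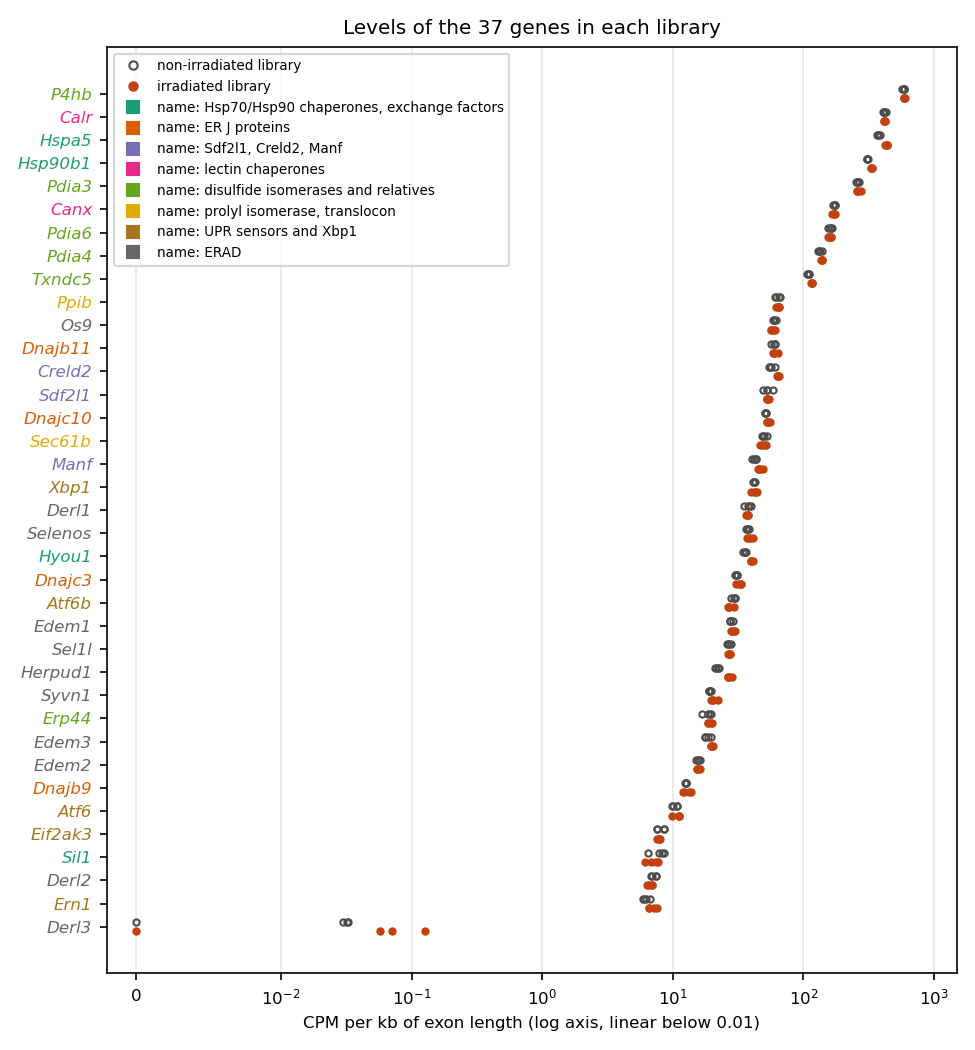
Level of each of the 37 genes in every library (points) as CPM per kb of exon length (x axis, log scale above 0.01), ordered by the non-irradiated mean and with names coloured by role. P4hb is at the top near 586.4 and Ern1 is the lowest tested gene at 6.23, and the 2 groups nearly coincide for most genes.

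Of the 4 Hsp70 and Hsp90 chaperones and exchange factors 3 rose, Hspa5, Hsp90b1 and Hyou1. Hspa5 (ENSMUSG00000026864.14), the Hsp70 of the ER that also holds the UPR sensors inactive, stood at 1549, 1628, 1574 and 1562 CPM in C5 to C8 and at 1832, 1786, 1853 and 1856 CPM in L5 to L8. The lowest irradiated library lay well above the highest non-irradiated one. The means were 1578 ± 34.9 and 1832 ± 32.3 CPM, a fitted rise of 16.1% (log2 fold change 0.22, SE 0.025, edgeR adjusted p = 5.23e-06). It was called in each of 17 alternative settings.

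Hsp90b1, the ER Hsp90 (GRP94) that folds integrins and Toll-like receptors, gave 1253, 1248, 1230 and 1244 CPM in C5 to C8 and 1352, 1349, 1333 and 1336 CPM in L5 to L8. Spread within each group was under 1% of the mean and the groups did not overlap. The rise was 7.93% (log2 fold change 0.11, SE 0.024, edgeR adjusted p = 0.00266). Hyou1, the large Hsp70 relative that serves BiP as a nucleotide exchange factor, gave 259.9, 262, 251.4 and 257.2 CPM against 287.4, 285.4, 298.4 and 287.2 CPM. All irradiated libraries were above all non-irradiated ones, L7 highest, and the rise was 12.4% (log2 fold change 0.17, SE 0.030, edgeR adjusted p = 0.000556).

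Sil1, the other exchange factor of BiP, did not pass the test. It had 27, 22.1, 28.4 and 29.6 CPM in C5 to C8 and 20.9, 25.6, 23.5 and 26.4 CPM in L5 to L8. The groups overlapped, and the 95% interval of the change ran from -21.1% to 2.86% (edgeR adjusted p = 0.31), the widest on the low side of any member.

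Of the 4 J proteins that hand substrates to BiP, 0 passed the test by edgeR or by DESeq2, and 1, Dnajc10, had an unadjusted p under 0.05. Dnajb9 (ERdj4), which returns IRE1 to its inactive state, stood at 31.9 ± 0.28 CPM in controls and 32.5 ± 2.28 CPM after irradiation, with an interval of -6.71% to 11.6%. Its spread was larger in irradiated libraries, where L5 and L7 were at 30.4 and 30.8 and L6 and L8 at 35.2 and 33.7 CPM. Dnajb11 (ERdj3), a J protein that is also secreted, differed by 1.33% (interval -3.82% to 6.76%). Dnajc3 (p58IPK) differed by 5.09%, with L8 at 155.6 CPM inside the non-irradiated range and the other irradiated libraries above it. Dnajc10 (ERdj5), a disulfide reductase for ERAD, was at 253.8 to 258.4 CPM against 262.8 to 276.5 CPM. Its groups did not overlap, but the difference of 4.67% did not pass over all genes (edgeR adjusted p = 0.16).

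Among the small ER proteins induced with BiP in the UPR, Creld2 and Manf rose and Sdf2l1 did not pass. Creld2, a secreted protein with isomerase-like motifs, was at 77.4, 74.7, 75.4 and 83.5 CPM in C5 to C8 and at 86.6, 85.7, 89.1 and 87.3 CPM in L5 to L8. C8 stood above the other non-irradiated libraries and still below every irradiated one. The rise was 12.1% (log2 fold change 0.16, SE 0.044, edgeR adjusted p = 0.0148), and the call was lost without C7 (adjusted p = 0.0529).

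Manf, a secreted factor that binds BiP, gave 147.9, 143.6, 153.6 and 152.8 CPM against 173.9, 164.2, 161.8 and 158.5 CPM. The groups did not overlap, with L5 the highest. The rise was 10.1% (log2 fold change 0.14, SE 0.038, edgeR adjusted p = 0.0156), lost without L5 (adjusted p = 0.0751). Sdf2l1, which works with Dnajb11 and BiP, had means of 58.9 ± 4.37 and 59 ± 1.17 CPM, a difference of 0.203% with an interval of -7.29% to 8.3%.

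**Figure D4:**
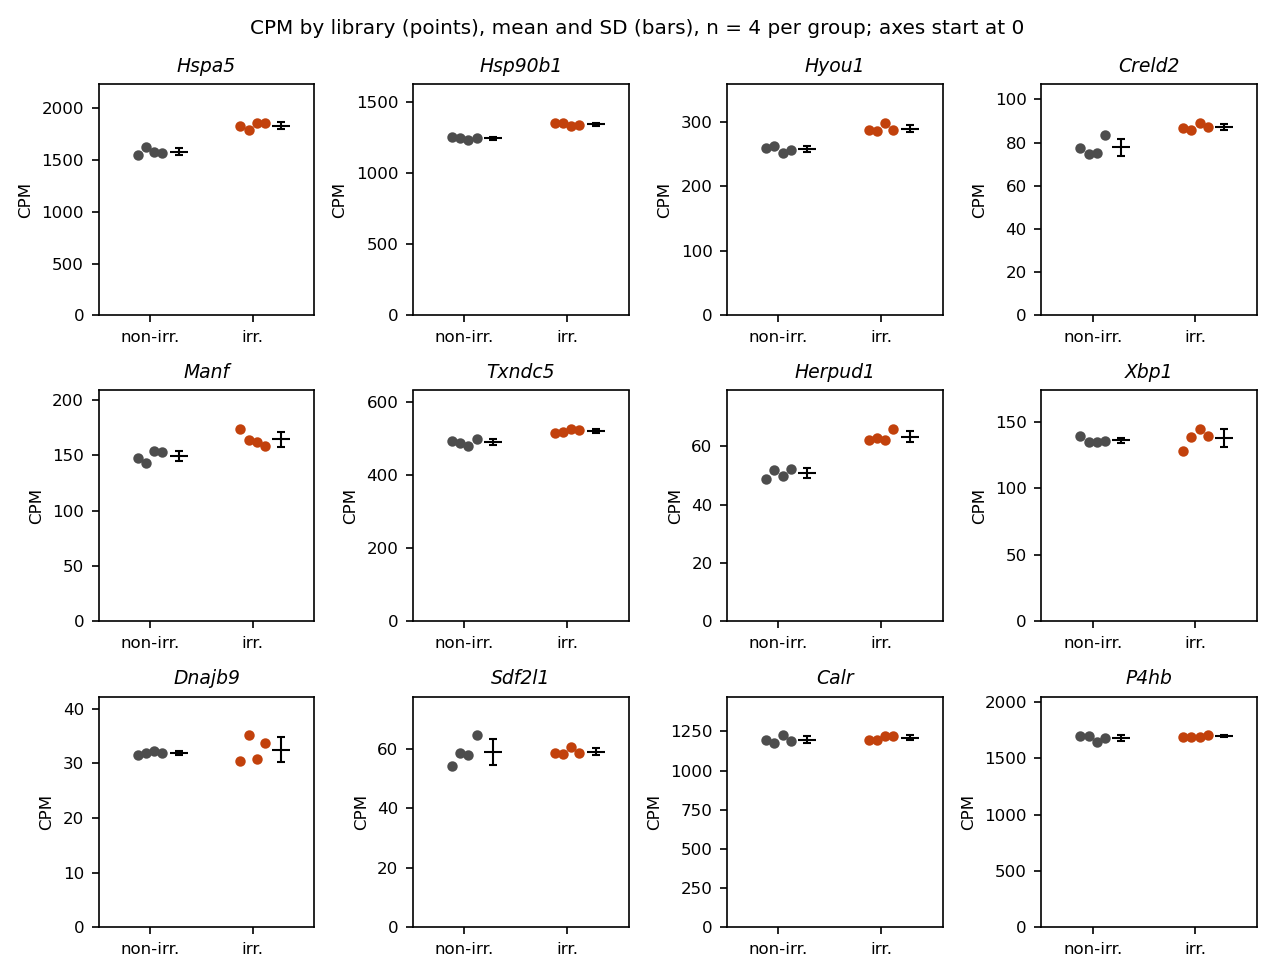
CPM in each library (points) with the group mean and SD (bars, n = 4) for the 7 genes that rose and for Xbp1, Dnajb9, Sdf2l1, Calr and P4hb, on axes that start at 0. The groups separate without overlap in the 7 risen genes, Herpud1 by the widest relative step (24.6%), and overlap in the other 5.

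Because a ratio of counts within a library does not depend on how libraries are scaled, Hspa5 was also set against 13 other members, picked after their values were seen and described without a test. For each count of P4hb there were 0.912 to 0.96 counts of Hspa5 in non-irradiated and 1.06 to 1.1 in irradiated libraries. The ratio to Calr was 1.28 to 1.39 in controls and 1.49 to 1.53 after irradiation. That to Hsp90b1 was 1.24 to 1.3 and 1.32 to 1.39. In 7 of the 13 ratios every irradiated library was above every non-irradiated one, those to Dnajb11, Dnajc3, Dnajc10 and Sdf2l1 included. As Hspa5 itself rose, the same held for 62.4% of its ratios to the other 8007 genes averaging 20 CPM or more, so the count is not a result about the members. Against Dnajb11 the mean ratio was 8.21 ± 0.454 before and 9.4 ± 0.266 after irradiation, and against Sdf2l1 26.9 ± 1.94 and 31.1 ± 0.551 (SD, n = 4). The ratios to Hyou1, Manf and Creld2, which rose as well, overlapped between the groups, as did those to Dnajb9 and Sil1. Only that to Herpud1 was lower in every irradiated library, at 28.1 to 29.8 against 29.9 to 31.6 (2.49% of the other genes).

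**Figure D5:**
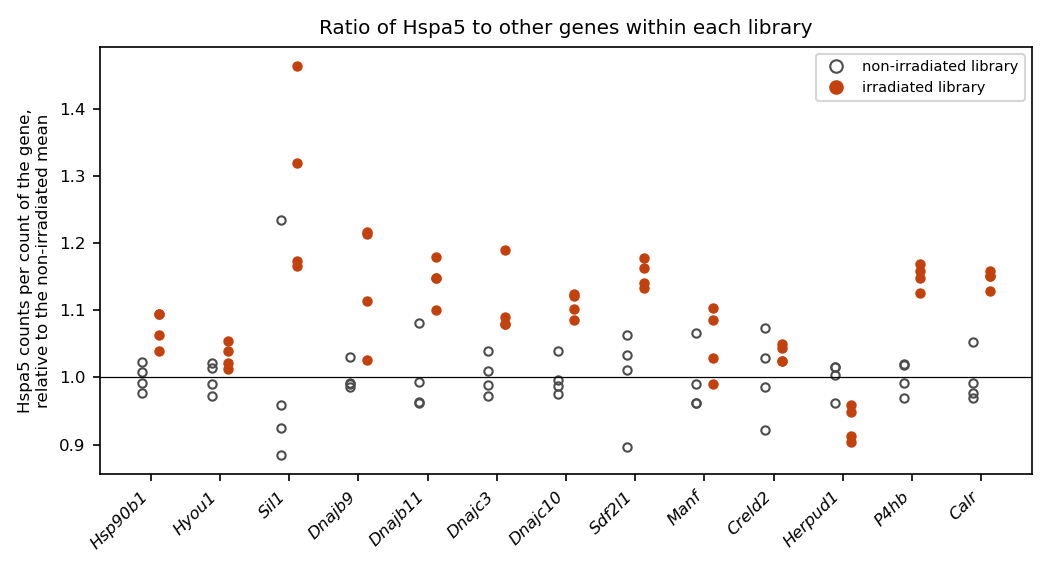
Hspa5 counts per count of 13 other members within each library (points), divided by the non-irradiated mean of that ratio (y axis, no unit). The irradiated points lie above all non-irradiated ones for 7 genes, P4hb and Calr among them, and below them for Herpud1.

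Lectin chaperones and most disulfide isomerases were held within narrow bounds. Calr (calreticulin), the soluble lectin chaperone and calcium store, gave 1197, 1175, 1227 and 1189 CPM in C5 to C8 and 1194, 1198, 1222 and 1224 CPM in L5 to L8. The groups overlapped fully, and the change was 1.03% with an interval of -2.57% to 4.75%. Canx (calnexin), its membrane-bound relative, had an interval of -5.12% to 2.61%. Among the 6 isomerases and relatives only Txndc5 passed. P4hb was at 1678 ± 27.8 and 1692 ± 9.04 CPM, a change of 0.821% (interval -2.57% to 4.33%). Pdia3, which works with the lectin chaperones on glycoproteins, changed by 0.985% and Pdia6 by -1.25%. Pdia4 gave 331.2, 314.6, 309.9 and 323.2 CPM against 329, 331.8, 332 and 331.9 CPM, in which C5 lay inside the irradiated range (3.58%, edgeR adjusted p = 0.289). Erp44, which retains clients in the early secretory pathway, had an interval of -4.21% to 11.7%.

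Txndc5 (ERp46), an isomerase with 3 thioredoxin-like domains, stood at 493.4, 488.2, 481.1 and 498.8 CPM in C5 to C8 and at 514.3, 519.1, 526.6 and 524.2 CPM in L5 to L8. The groups did not overlap. This was the smallest of the called rises, 6.26% (log2 fold change 0.09, SE 0.027, edgeR adjusted p = 0.0307). It was lost when library totals alone set the scale (adjusted p = 0.106), with upper-quartile scaling (0.0512) and without C5, C7, L7 or L8 (0.0567 to 0.0961). Ppib (cyclophilin B), a prolyl isomerase for procollagen, and Sec61b, a subunit of the translocon through which proteins enter the ER, changed by 1.48% and -1.44% and did not pass.

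Of the sensors and Xbp1, 0 of 5 passed by edgeR and 1 by DESeq2, and 1 had an unadjusted p under 0.05 in edgeR. In both cases this was Ern1, the kinase and RNase IRE1 that splices Xbp1 mRNA. It gave 49.5, 54.7, 51.3 and 48.2 CPM in C5 to C8 and 53.6, 53.5, 61.7 and 58.8 CPM in L5 to L8, where C6 exceeded L5 and L6. The fitted difference was 11.8% (interval 2.79% to 21.6%, edgeR adjusted p = 0.0691). It passed without C6 (adjusted p = 0.0251) or L6 (0.045), by DESeq2 (0.046), with a filter of 1 CPM (0.0455) and with counts divided by 4 (0.0474), and missed most widely without L7 (0.22).

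Xbp1, the transcription factor whose mRNA IRE1 splices, stood at 139.1, 134.9, 134.6 and 135.7 CPM against 128.3, 138.8, 144.6 and 139.3 CPM. L5 was below and L7 above every non-irradiated library. The change was 1.21% (interval -4.32% to 7.06%, edgeR adjusted p = 0.837). Counts per gene do not separate spliced from unspliced Xbp1 mRNA, so splicing was not measured here. Atf6, the sensor cleaved in the Golgi, gave 98.8, 99.9, 91.1 and 92.5 CPM against 102.4, 91.5, 103.2 and 103.6 CPM, with L6 in the non-irradiated range and the other irradiated libraries above it (edgeR adjusted p = 0.388). Atf6b, its paralog, had 76.5, 82.4, 80.9 and 82.3 CPM against 81.8, 74.2, 72.9 and 74.7 CPM, with L5 alone inside the non-irradiated range (edgeR adjusted p = 0.259). Eif2ak3, the kinase PERK that phosphorylates eIF2alpha, had 51.8, 51.9, 46 and 45.9 CPM against 48, 47.4, 47.2 and 45.6 CPM (edgeR adjusted p = 0.58). Its groups overlapped.

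In ERAD only Herpud1 passed, 1 of 10 tested genes. Herpud1 (ENSMUSG00000031770.17), a ubiquitin-like membrane protein that organises the Hrd1 ligase complex, gave 49, 52.1, 49.8 and 52.3 CPM in C5 to C8 and 62.2, 62.8, 62.2 and 66 CPM in L5 to L8. Every irradiated library was above every non-irradiated one by a wide gap. The means were 50.8 ± 1.68 and 63.3 ± 1.84 CPM, a rise of 24.6% (log2 fold change 0.32, SE 0.048, edgeR adjusted p = 8.93e-05). The call was kept in all 17 alternatives.

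Among the members that work with it in the ligase complex, Syvn1, Sel1l and Os9 did not pass. Syvn1, the ubiquitin ligase Hrd1, had 91.4, 94.8, 91.5 and 92.9 CPM against 96.8, 95.2, 99 and 108.6 CPM. The groups did not overlap, L8 standing highest (7.82%, edgeR adjusted p = 0.112). Sel1l, the adaptor of Hrd1, changed by 1.06% (interval -3.61% to 5.95%). Os9, a lectin that brings glycoproteins to Sel1l, changed by -3.19% (interval -8.14% to 2.02%). The channel proteins Derl1 and Derl2 changed by -1.36% and -6.76%, Derl2 with an edgeR adjusted p of 0.211, and Selenos, which links Derlins to the ATPase p97, by 4.11%.

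The EDEM proteins trim mannose from misfolded glycoproteins. Edem3 gave 113.2, 124.8, 113.1 and 119 CPM in C5 to C8 and 127.9, 125.2, 125.7 and 129.3 CPM in L5 to L8. The groups did not overlap, though C6 came within 1 CPM of L6. The difference of 8.07% missed the threshold (edgeR adjusted p = 0.0596) and passed without C6 (0.0104), by DESeq2 (0.0357), with a filter of 1 CPM (0.0407) and with counts divided by 4 (0.0407). Edem1 changed by 3.59% and Edem2 by -0.104%, and neither passed. In all, 10 of the 36 members had irradiated libraries wholly above the non-irradiated ones (27.8%, against 9.76% of all tested genes and 14.6% of those averaging 20 CPM or more), and 0 wholly below (8.78% of all tested genes). Both of these gene sets scattered more between libraries than the members did, and less scatter makes separation easier. The shares are therefore no like-for-like comparison.

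Other genes of the pathway, in 6 lists, gave the setting. Of 88 tested genes 13 were higher and 6 lower, and their log2 fold changes had a median of 0.01. Over all tested genes 8.22% were higher and 6.75% lower, and 13.6% and 9.8% of those averaging 20 CPM or more. The counts here and below describe the lists, and no list was tested against these shares. Oxidative folding and other isomerases had 4 of 19 higher, the thioredoxin-like membrane proteins Tmx4 (1.15-fold), Txndc11 (1.12-fold) and Tmx1 (1.09-fold) and the oxidase Ero1a (1.1-fold), which recharges P4hb (edgeR adjusted p of 0.0163 to 0.0194). In glycan trimming and lectin quality control 2 of 15 were higher, the cargo receptor subunit Mcfd2 (1.14-fold, edgeR adjusted p = 0.0104) and the glucosidase Mogs (1.1-fold, 0.0146). Translocon and signal peptidase genes had 2 of 17 higher, the translocon-associated protein gene Ssr3 (549.7 ± 14.4 to 608.5 ± 9.44 CPM, edgeR adjusted p = 0.00103) and Sec61a1, the pore of the translocon (519.9 ± 14.3 to 558.9 ± 11.5 CPM, 0.0181). Single libraries decided several of these calls. Ero1a was lost without C5 (adjusted p = 0.0542), Tmx1 and Txndc11 without C7 or L8 (0.0517 to 0.0837) and Tmx4 without C5, C8 or L8 (0.0503 to 0.0649), so that 1 isomerase gene was higher without L8 and 2 were without C5 or C7. Without C6, 1 isomerase gene was lower. Mogs was lost without C5 or L8 (0.0509 and 0.0682) and Sec61a1 without C5, C7, L5 or L7 (0.0554 to 0.076) or with library totals alone (0.0558), each leaving 1 gene of its list higher.

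Further ERAD genes had 1 of 19 higher and 2 lower. Ube2j1, the ubiquitin-conjugating enzyme of the Hrd1 complex, rose 1.15-fold from 86.4 ± 4.26 to 99.7 ± 1.07 CPM (edgeR adjusted p = 0.00182). Rnf139, a ubiquitin ligase that also acts in sterol control, fell from 39.7 ± 2.97 to 32.1 ± 1.61 CPM (log2 fold change -0.31, 0.00233). Fam8a1, an Hrd1 cofactor, fell from 59.4 ± 2.48 to 51.9 ± 4.63 CPM (edgeR adjusted p = 0.032), with overlap, and lost its call without C5, C7, L5, L7 or L8 (0.0618 to 0.126), which left 1 lower.

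Among activators of the UPR and bZIP relatives of Atf6, 2 of 9 tested genes were higher and 1 lower. Creb3l1 (OASIS), an ER-bound factor of bone-forming cells that drives collagen transcription, rose from 200.9 ± 5.31 to 253.9 ± 13.5 CPM (1.26-fold, log2 fold change 0.34, SE 0.038, edgeR adjusted p = 2.8e-06), a step like that of Herpud1. Mbtps2, the protease that finishes the cleavage of Atf6 and of SREBP, rose from 40.3 ± 4.76 to 47.4 ± 1.32 CPM (edgeR adjusted p = 0.0248), a call lost without C7, C8, L7 or L8 (0.0707 to 0.103), which left 1 higher. Crebrf, a regulator of the Creb3 family, fell from 24.1 ± 2.96 to 15.6 ± 1.14 CPM (log2 fold change -0.63, edgeR adjusted p = 5.37e-05).

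In the PERK arm and integrated stress response 2 of 9 genes were called higher and 3 lower, and 4 did not pass. The fitted log2 fold change was below 0 for 7 of the 9 and above 0 for 2, with a median of -0.204. Atf4, the factor translated when eIF2alpha is phosphorylated and named here after its values were seen, fell from 295.5 ± 5.93 to 264.1 ± 6.32 CPM (log2 fold change -0.16, edgeR adjusted p = 0.00094). Chac1, an ATF4 target that degrades glutathione, fell from 14.8 ± 0.542 to 11.6 ± 0.748 CPM (log2 fold change -0.35, 0.00943). Ddit3 (CHOP), which PERK signalling induces, fell from 32.2 ± 1.94 to 27.7 ± 1.61 CPM (log2 fold change -0.22, 0.0307) and lost its call without C5, C6, C8, L5, L7 or L8 (0.0501 to 0.101). The genes of the eIF2alpha phosphatase subunits were the higher ones, Ppp1r15b at 124.5 ± 8.85 and 144 ± 2.72 CPM (edgeR adjusted p = 0.00238) and Ppp1r15a at 19.2 ± 1.14 and 22.7 ± 0.979 CPM (0.0257). Ppp1r15a lost its call without C7, C8, L7 or L8 (0.0525 to 0.0878), leaving 1 higher.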

How the data were processed

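The table the authors deposited holds estimated counts per gene as whole numbers without normalization. The submitters' processing notes name HISAT2 (2.2.1), StringTie (2.1.7), Trimmomatic (0.39), FastQC (0.11.9) and DESeq2 (1.32.0) and the build GRCm39. Settings, annotation release, read length and strand use were not stated, so reads shared by overlapping or antisense genes are uncertain. The value 4 was more frequent (6096) than 3 (4006) or 5 (2428). The value 1 was more frequent still (6623), and 8 (2551) barely exceeded 7 (2515). Variance, which includes spread between libraries, was 4.21 and 4.32 times the mean in the 2 groups at means of 5 to 100. A fragment may thus add about 4 counts, in which case counting error exceeds that of single reads, but this was not tested. Columns are numbered 5 to 8 and sample titles 1 to 4, so a column was tied to its group only.

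Identifiers were matched to GENCODE M21 symbols (older names through RefSeq synonyms), which also gave exon lengths (union of exons, GRCm38). Genes passed filterByExpr (minimum count 10), were scaled by TMM and fitted with edgeR 4.0.16 in R 4.3.3 (glmQLFit, robust), group as the only term; the SE is the log2 fold change over the square root of F, and the 95% interval uses the fitted degrees of freedom. Alternatives were DESeq2 1.42.0, limma-voom (limma 3.58.1), other scalings and filters, division by 4, leaving out each library and a block on the column number. Genes and lists were chosen with earlier results of these data known; named are all 37 members and, in each pathway list, up to 4 genes past the threshold with the largest change, to which Atf4 was added after its values were seen.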

Additional observations from a re-analysis of the deposited data

Results flagged for a closer look

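In 8 of 110 gene and group combinations 1 library stood apart from the other 3 by Dixon's criterion; chance flags about 1 in 20. Hyou1 was at 298.4 CPM in L7 against 285.4 to 287.4 in the other irradiated libraries. Sdf2l1 was at 60.7 CPM in L7 against 58.2 to 58.5. Pdia3 was at 862.2 CPM in L8 against 807.6 to 815.4, and Herpud1 at 66 CPM in L8 against 62.2 to 62.8. Pdia4 was at 329 CPM in L5 against 331.8 to 332, a small step in a very tight group. Atf6 was at 91.5 CPM in L6 against 102.4 to 103.6, and Ppp1r15b at 140 CPM in L6 against 144.9 to 145.9. Edem1 was at 186.3 CPM in C6 against 177.3 to 177.8 in the other non-irradiated libraries.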

How the results depend on the processing

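The count of members called higher was 7, and 6 to 9 under the alternatives that kept all libraries: 9 by DESeq2, with a filter of 1 CPM or with counts divided by 4, and 6 with upper-quartile scaling or library totals alone. Leaving out 1 library gave 5 (without C7) to 9 (without C6). The count lower was 0 in all 17 alternatives. Hspa5, Hsp90b1, Hyou1 and Herpud1 kept their calls in all 17, and 9 of the 19 called pathway genes did. Over all genes 1050 to 1495 were higher and 948 to 1345 lower with all libraries and no block, and 976 to 1501 and 696 to 1172 with 1 left out. With library totals alone 43.8% of the called genes were higher, against 54.9% with TMM. Scaling moved the median of all genes by at most 0.02 on the log2 scale. A replicate block on the column number (5 to 8), added after seeing the data, gave 6 members higher (Txndc5 was lost, adjusted p = 0.0821), 0 lower, and 1006 higher and 751 lower over all genes. Pathway counts fell from 2 to 1 for the higher genes of the translocon, UPR activator and PERK lists and for the lower ERAD genes. Libraries that share a number did not deviate together (correlations of -0.0459 to 0.00144), so the block was not used elsewhere. Differences of a few percent in genes of low count were not detectable at this depth. Derl3, with 9 counts over the non-irradiated and 25 over the irradiated libraries, was too low to be tested at all.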
